A study of Mus musculus with 2 samples.

Results

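Chemokines are small secreted proteins that attract leukocytes, and this account follows 10 of their genes in mouse liver, Cxcl1, Cxcl2, Cxcl9, Cxcl10, Cxcl12, Cxcl16, Ccl2, Ccl4, Ccl5 and Ccl6. The 10 genes, of 18193 with a probe set of a single gene symbol, were chosen by symbol, with the diet differences of these same arrays already known, so their differences are a description and carry no test. All 17 probe sets annotated to those symbols were used, and none was annotated to a second symbol.

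Total liver RNA came from male wild-type C57BL/6J mice, an inbred laboratory strain, housed singly and sampled at 5 months of age. Mice of the AL group ate ad libitum for 12 weeks from 8 weeks of age, and mice of the CR (calorie-restricted) group received 20% less food for 1 week and 40% less for the next 11 weeks. RNA of 3 mice per diet was pooled, and each pool was hybridised to 1 Affymetrix array of 45101 probe sets, so each diet had a single measurement, no replicate and no p-value, and precision is limited by that number of arrays. The comparison asks how liver expression differed between the diets. Each difference below was computed on the log2 scale as CR minus AL. In bulk liver, fewer cells of a type and less RNA per cell cannot be told apart.

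Chemokines signal through G protein-coupled receptors on leukocytes and are grouped by the spacing of their first cysteines into CXC and CC families. Those CXC ligands that carry an ELR motif, such as Cxcl1 and Cxcl2, attract neutrophils through Cxcr2, whereas Cxcl9 and Cxcl10 are induced by interferon gamma and attract activated T cells through Cxcr3. In liver, hepatocytes, Kupffer cells, sinusoidal endothelial cells and stellate cells can all make chemokines. NF-kB, a transcription factor activated by interleukin-1, TNF and bacterial products, drives many of these genes.

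The upstream sequences of 4 genes are shown because Cxcl1 alone differed strongly between the pools, Cxcl2 is its nearest protein-coding neighbour and a close relative in function, and Cxcl9 and Cxcl10 are the pair induced by interferon gamma. RefSeq promoter windows (GRCm38.p6) matched 6 of the 10 genes by symbol, Cxcl1, Cxcl2, Cxcl9, Cxcl10, Cxcl12 and Ccl6. The last 160 bases before the annotated transcription start are printed 5′ to 3′ on the gene's strand, with capitals where a search of both strands met the NF-kB consensus. They lie at chr5:90891085-90891244 (+) for Cxcl1, chr5:90903739-90903898 (+) for Cxcl2, chr5:92328080-92328239 (-) for Cxcl9 and chr5:92348890-92349049 (-) for Cxcl10.
Cxcl1: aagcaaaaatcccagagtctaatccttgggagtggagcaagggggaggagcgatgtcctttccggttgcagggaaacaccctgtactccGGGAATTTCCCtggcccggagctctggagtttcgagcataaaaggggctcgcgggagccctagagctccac
Cxcl2: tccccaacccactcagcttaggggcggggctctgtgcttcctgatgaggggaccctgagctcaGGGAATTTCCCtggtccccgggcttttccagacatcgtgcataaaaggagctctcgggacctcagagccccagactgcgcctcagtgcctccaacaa
Cxcl9: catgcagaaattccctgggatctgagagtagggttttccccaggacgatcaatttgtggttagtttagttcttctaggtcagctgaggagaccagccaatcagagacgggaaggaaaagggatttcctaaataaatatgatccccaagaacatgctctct
Cxcl10: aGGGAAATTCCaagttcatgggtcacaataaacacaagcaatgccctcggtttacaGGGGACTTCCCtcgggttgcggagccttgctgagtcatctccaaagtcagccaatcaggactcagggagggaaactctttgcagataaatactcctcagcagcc

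Over 250 bases before the start, Cxcl1 had overlapping matches to the NF-kB consensus on 71 to 61 bases before the start, and Cxcl2 had the same on 97 to 87. The longest stretch shared by those 2 windows was GGGAATTTCCCTGG, 14 bases, which holds the matches. Cxcl10 had 3 matches, 2 of them overlapping, and Cxcl9, Cxcl12 and Ccl6 had none. Of 32851 promoter windows searched over the same length, 7.25% held a match. The gamma-activated site, searched as TTCNNNGAA, occurred in none of the 6 windows and in 7.02% of all, the AP-1 site TGANTCA in Cxcl10 alone of the 6 and in 6.75% of all, and the TATA box spelled TATAAA in Cxcl9 alone of the 6 and in 12.4% of all. The Cxcl9 match lay 195 to 190 bases before the start, outside the 160 printed bases. The printed bases of Cxcl1 and Cxcl2 both hold cataaaagg, which the exact spelling TATAAA misses by its first letter. A match describes letters in a window and is not a binding site.

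A gene was counted as measured if its brightest probe set reached an intensity of 7.38 on either array, the median of all values of both arrays. As a second mark of background, 95% of the values of 44 probe sets for olfactory receptor genes, which liver is not known to use, lay at or below 9.14. Of the 17 chemokine probe sets, 12 lay above both marks on both arrays. Those of Cxcl2 and Ccl2 and 1 of the 3 for Cxcl12 lay below 7.38 on both arrays, and 1 of Cxcl1 and that of Ccl5 lay between the 2 marks in the CR pool. Thus 8 of the 10 genes were measured.

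Among these 8 genes, Cxcl1 was lower in the CR pool by 4.28 log2 units and was alone in differing by 2-fold or more. The others lay between -0.33 and 0.23, with 5 below 0, Cxcl10 at 0 and Cxcl9 above 0. At least 2-fold lower were 1 of the 8, against 2.66% of 12644 measured genes, and none of the 8 was at least 2-fold higher, against 1.76% of measured genes. The median over the 8 genes was -0.20, against -0.02 over all measured genes. The middle 95% of all measured genes spanned -1.04 to 0.89, so the 7 genes other than Cxcl1 lay well inside the common range.

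**Figure D1:**
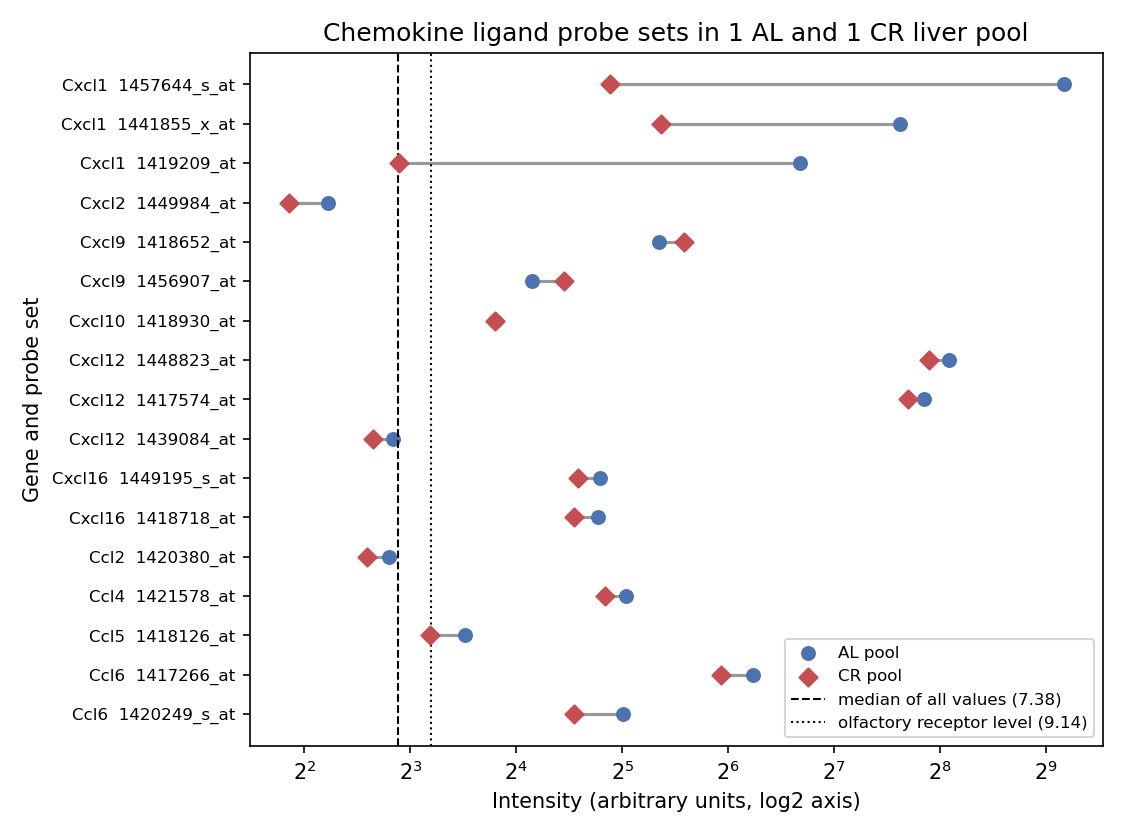
Intensity (arbitrary units, log2 axis) of each chemokine probe set in the AL pool (circles) and the CR pool (diamonds), joined by a line, with 7.38 (dashed) and 9.14 (dotted) as marks of background. The 3 Cxcl1 probe sets show the long distances between pools, both Cxcl9 probe sets are higher in CR, and the Cxcl2 and Ccl2 probe sets lie left of the dashed line.

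Cxcl1, also called KC, recruits neutrophils and is made by hepatocytes and other liver cells under inflammatory signals. Its brightest probe set, 1457644_s_at, read 575 in the AL pool and 29.6 in CR, a 19.4-fold lower value in CR. Probe set 1419209_at had 102 in AL and 7.43 in CR, 13.8-fold lower, but its CR value lay just above the first background mark and below the second, against which the AL value was at least 11.2-fold higher. Probe set 1441855_x_at had 196 in AL and 41.3 in CR, 4.76-fold lower. All 3 probe sets were thus lower in CR, by 4.28, 3.79 and 2.25 log2 units in that order. The SD of the 3 differences was 1.06, against a median SD of 0.29 over 4924 genes with at least 2 measured probe sets. Probe sets ending in _s_at or _x_at can match more than 1 transcript, and without such probe sets Cxcl1 stood at -3.79.

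Only 5 of 12644 measured genes had a lower difference than Cxcl1. The measured genes next to it in that order, over 2 arrays and by the size of a single difference, were Cyp4a12a at -5.54, Slco1a1 at -4.39 and Elovl3 at -4.38 on 1 side, and Saa1 at -3.82, Saa2 at -3.65 and Ugt2b38 at -3.56 on the other. Cyp4a12a encodes a fatty acid hydroxylase, Slco1a1 an organic anion transporter, Elovl3 a fatty acid elongase, Saa1 and Saa2 serum amyloid proteins of the acute phase, and Ugt2b38 a glucuronosyltransferase. Because Saa1 and Saa2 resemble each other closely, either probe set may pick up both.

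Cxcl2, or MIP-2, is the second ELR ligand of the set and lies next to Cxcl1 among the protein-coding genes of chromosome 5. Its single probe set had 4.68 in AL and 3.61 in CR, both below the background mark, so no fold is given. The strong difference of Cxcl1 therefore had no readable counterpart in Cxcl2 on these arrays. Cxcl3 and Cxcl5, further ELR ligands, were also below the mark in both pools.

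Cxcl9 and Cxcl10 lay apart from Cxcl1. Cxcl9, or MIG, had 40.8 in AL and 47.9 in CR on its brightest probe set, a difference of 0.23, and 17.7 and 21.9 on the other, a difference of 0.31. Both probe sets placed it slightly higher in CR, by 1.17-fold and 1.24-fold. Cxcl10, or IP-10, had 13.9 in both pools, and the 2 deposited values were identical in every digit. Such identity occurred in 483 of 45101 probe sets (1.07%), and how it arose was not tested.

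Cxcl12, or SDF-1, is a constitutive chemokine that acts through Cxcr4 and is made by stromal and endothelial cells. Its brightest probe set had 272 in AL and 238 in CR, a difference of -0.19. The second had 230 in AL and 208 in CR, a difference of -0.14. These 2 gave nearly the same small value, while the third, at 7.15 in AL and 6.25 in CR, lay below the background mark. Cxcl16 is made as a membrane-bound protein that ADAM10 can shed, and it binds Cxcr6 on T and NKT cells. It had 27.7 in AL and 23.9 in CR on 1 probe set and 27.4 and 23.4 on the other, differences of -0.21 and -0.23.

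The 4 CC ligands were dim or near equal in the 2 pools. Ccl2, or MCP-1, the main attractant of Ccr2-bearing monocytes, had 6.94 in AL and 6.01 in CR, below the background mark in both pools. Ccl4, or MIP-1 beta, an attractant of monocytes and T cells, had 32.7 in AL and 28.6 in CR, a difference of -0.19. Ccl5, or RANTES, made chiefly by T and NK cells, had 11.4 in AL and 9.09 in CR, a difference of -0.33 close to background. Ccl6, a rodent CC chemokine of myeloid cells, had 75.2 in AL and 61.2 in CR on its brightest probe set, a difference of -0.30, and 32.2 and 23.4 on the other, a difference of -0.46. The 3 measured CC ligands were lower in CR, by a size that is common on these arrays: among 4421 measured genes with a mean intensity under 16, the middle 95% ran from -0.79 to 0.65, and among 4351 genes from 16 to under 64 it ran from -1.12 to 0.89. For the 2461 genes of the next brighter band, which holds Ccl6, it ran from -1.17 to 1.12.

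**Figure D2:**
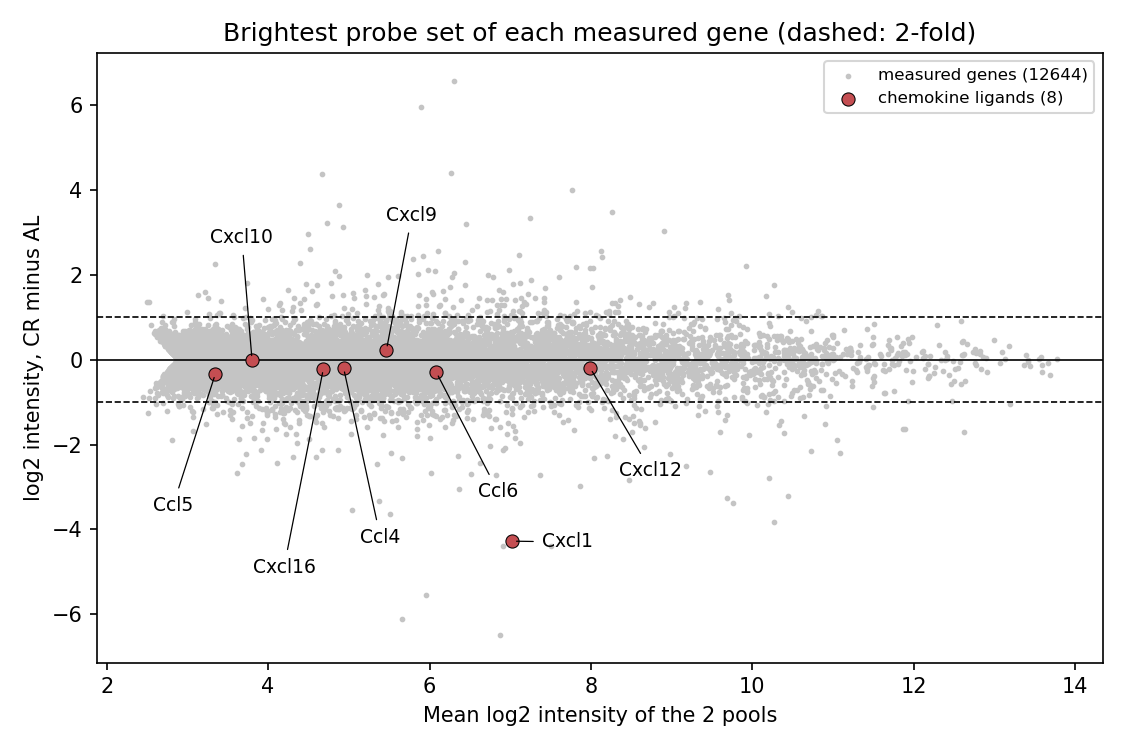
Log2 difference CR minus AL against mean log2 intensity for the brightest probe set of each of 12644 measured genes (grey) and the 8 measured chemokine ligands (red), with dashed lines at 2-fold. Cxcl1 at -4.28 lies far below the grey band, and the other 7 lie inside it between -0.33 and 0.23.

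Among the remaining chemokine ligands none differed by 2-fold, against 2.66% of all measured genes at least 2-fold lower and 1.76% higher. Of 27 other CC, CXC, XC and CX3C ligands listed, 25 had a usable probe set, 12 were measured and 13 lay below the mark. The median of the 12 was -0.07, and with values under 7.38 raised to it the range ran from -0.40 to 0.71. Cxcl11, a Cxcr3 ligand, had 8.38 in AL and 5.82, below the mark, in CR. Cxcl17, a mucosal chemokine, had 8.12 in AL and 13.3 in CR. Ccl1, a Ccr8 ligand, had 5.55 in AL, below the mark, and 8.10 in CR. Ccl9, a myeloid chemokine whose gene lies between those of Ccl5 and Ccl6, had 192 in AL and 146 in CR, a difference of -0.40.

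Receptors were mostly dim in whole liver. Of 23 listed receptors, 21 had a usable probe set and 9 were measured, with a median of 0.00. None was at least 2-fold lower, against 2.66% of all measured genes, and 1 was at least 2-fold higher, against 1.76%. That 1 was Ackr4, an atypical receptor that removes Ccl19, Ccl21 and Ccl25, with 5.79 in AL, below the mark, and 15.8 in CR, at least 2.14-fold higher, while another of its 3 measured probe sets stood at 0.16. This call was lost with the mean over its probe sets, at both stricter intensity limits, after both scalings on hybridisation controls and with 16 added to each value. Cxcr2, the receptor of Cxcl1, had 8.12 in AL and 6.72 in CR, below the mark in CR. Cxcr3, the receptor of Cxcl9 and Cxcl10, had 10.9 in AL and a difference of -0.11. Ccr2 had 23.2 in both pools, and Cxcr4 and Cxcr6 were below the mark.

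Genes that process or hold chemokines were followed as a further list of 12, of which 10 were measured, with a median of 0.17. None differed by 2-fold, against 2.66% of all measured genes at least 2-fold lower and 1.76% higher. Gpc1, a heparan sulfate proteoglycan, read 22.0 in AL and 37.7 in CR, a difference of 0.78. Dpp4, a peptidase that trims the amino end of Cxcl9, Cxcl10 and Cxcl12, read 159 and 271, a difference of 0.77, although its 4 measured probe sets reached down to -0.21. Adam10 stood at 0.22, and its 3 probe sets reached down to -0.39.

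Genes of NF-kB and upstream cytokine signalling included several with lower values in the CR pool. The list mixes inducing signals, targets and inhibitors, and its part in the Cxcl1 difference was not tested. Of 35 listed NF-kB and upstream cytokine genes, 26 were measured, 3 were at least 2-fold lower and none was higher, with a median of -0.29 and 20 members below 0. Over all measured genes, 2.66% were at least 2-fold lower, 1.76% higher and 52.1% below 0, with a median of -0.02. Il1r1, the receptor for interleukin-1, had 180 in AL and 37.2 in CR, a difference of -2.27. Bcl3, a regulator of NF-kB that acts in the nucleus, had 102 in AL and 32.5 in CR, a difference of -1.65. Icam1, an adhesion molecule and NF-kB target, had 32.5 in AL and 15.2 in CR, a difference of -1.09. Each of these 3 rested on 1 measured probe set. Other NF-kB genes did not share their size, with Rela at -0.33, Tnfaip3 at -0.53 and Nfkbia, the main NF-kB inhibitor, at 0.21 on its brightest of 5 probe sets and up to 1.63 on the others. The cytokine genes themselves were dim: Il1b had 20.5 in AL and 18.8 in CR, Tnf had 7.02 in AL, below the mark, and 7.63 in CR, and Il6 lay below the mark in both pools.

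Interferon gamma genes, listed beside Cxcl9 and Cxcl10, had 16 measured of 19, with 8 below 0, 8 above 0 and a median of -0.14. Of all measured genes, 52.1% were below 0, 2.66% at least 2-fold lower and 1.76% higher, with a median of -0.02. By brightest probe set, none of the 16 was past 2-fold. Iigp1 read 567 in AL and 397 in CR on that basis, a difference of -0.51, but a second measured probe set gave -1.06. Gbp3, a guanylate-binding protein, read 11.3 in AL and 21.5 in CR, a difference of 0.93. Psmb8, an immunoproteasome subunit, stood at -0.77, and its other measured probe set at 0.14. Ifng itself was below the mark.

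Cells that make or answer chemokines were checked by marker lists. Neutrophil markers were lower in the same pool as Cxcl1, but several of them lay near background. All 8 measured of 14 listed were below 0, the median was -0.50 and 2 were at least 2-fold lower. Over all measured genes, 52.1% were below 0 and 2.66% at least 2-fold lower, with a median of -0.02. Lcn2 and Cxcr2 lay below 9.14 in both pools and below 7.38 in CR. With those CR values raised to 7.38, their differences were -0.17 and -0.14, whereas the median uses them unraised. Ngp and Mmp9 lay between the 2 background marks in CR. S100a8, S100a9, Elane and Csf3r lay above both marks in both pools. S100a8 and S100a9, the subunits of calprotectin, had 53.4 and 34.1 in AL and 10.9 and 10.2 in CR, differences of -2.29 and -1.75. The summed intensity over 12 neutrophil markers with a probe set was 192 in AL and 103 in CR, of which the 10 other than S100a8 and S100a9 held 105 and 82.2, and Mpo, Camp, Ltf and Mmp8 lay below the mark in both pools. The part of neutrophils in the Cxcl1 difference was not tested.

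Kupffer cell markers, of the resident liver macrophages, had 11 measured of 12, with 10 below 0, none past 2-fold, a median of -0.51 and a sum of 2809 in AL and 2497 in CR. For this and the next 2 lists, the shares across all measured genes were 52.1% below 0 and 2.66% at least 2-fold lower, with a median of -0.02. Clec4f, restricted to Kupffer cells, stood at -0.69 and Timd4 had 10.4 in AL and 5.63, below the mark, in CR, while Cd5l stood at -0.08, and Cd68 lay below the mark. C1qb was above 0, at 0.05 on its brightest probe set, but the lowest of its 3 measured probe sets stood at -1.25. Most of the Kupffer sum in both pools came from Cd5l, C1qb and Csf1r, the last at -0.09 on its brightest probe set. Monocyte and dendritic cell markers had 6 measured of 10, a median of -0.21 and a sum of 238 in AL and 134 in CR. Lyz2 (lysozyme) held most of that sum in AL but not in CR, with 151 in AL and 57.7 in CR. The other 8 genes summed to 86.6 in AL and 76.6 in CR. Of the 6, 4 were below 0, with Ccr2 among them at only -0.001. Of these 4, 2 were at least 2-fold lower, Lyz2 at -1.39 and Plac8 at -1.04. The CR value of Plac8, 8.21, lay between the 2 background marks. The 2 above 0 were Itgax at 0.17 and Fcnb, below the mark in AL, while Cd209a, Itgam and Cx3cr1 lay below the mark. T and NK cell markers had 5 measured of 14, 3 below 0 and 2 above, none past 2-fold, a median of -0.26 and sums of 116 in AL and 105 in CR, with Cd4 at -0.44, Cd3e at -0.30, Cd3d at 0.13, and Cd3g, Cd2, Gzma, Gzmb, Prf1 and Ncr1 below the mark. Their part in the chemokine values was not tested.

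Among markers of sinusoidal endothelial and stellate cells none differed by 2-fold. For these and the hepatocyte list, the shares over all measured genes were 52.1% below 0, 2.66% at least 2-fold lower and 1.76% higher. The median over all measured genes was -0.02. Sinusoidal endothelial markers had 9 measured of 10, with 5 below 0, 4 above and a median of -0.21. Clec4g stood at -0.50 (other probe set 0.20), Gpr182 at -0.48, Kdr at 0.22 and Stab1 at 0.12. Stellate cell markers had 9 measured of 10, with 6 below 0, 3 above and a median of -0.14. Lrat, the retinol esterifying enzyme, stood at -0.76, Rgs5 at 0.45 and Reln at 0.31, and Col1a1 had 9.96 in AL and 6.86, below the mark, in CR. Markers of hepatocytes, the main liver cell, were bright on both arrays: 9 of 10 listed were measured, with albumin, Alb, at 12765 in AL and 11794 in CR and a list median of -0.04. Of these, Fgb, a fibrinogen chain of the acute phase, was at least 2-fold lower, at -1.63. Ttr, from the same list, stood at -0.07 on its brightest probe set, but the lowest of its 4 measured probe sets stood at -1.60.

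**Figure D3:**
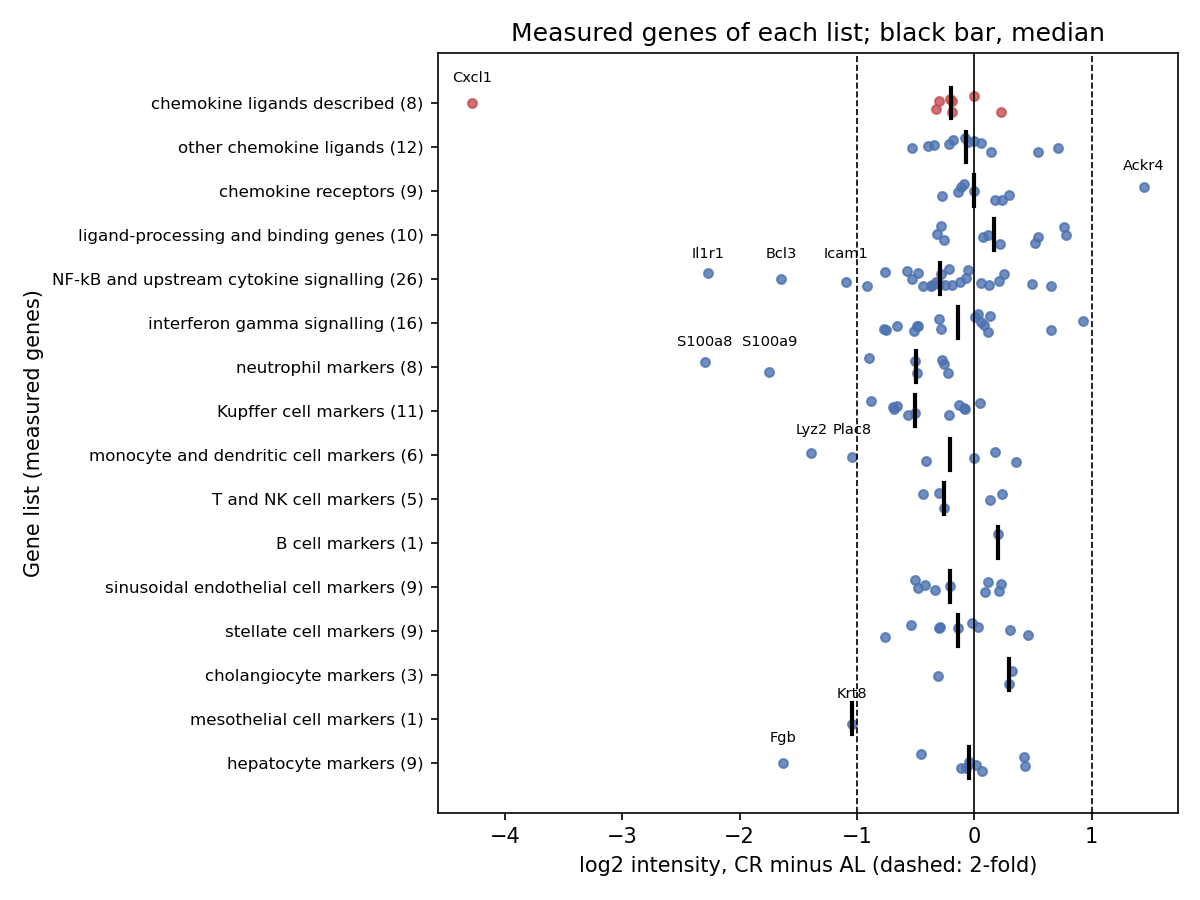
Log2 difference CR minus AL of each measured gene (points, spread vertically for legibility) in each list, with the number measured in parentheses, list medians as black bars and 2-fold as dashed lines. Cxcl1 lies at -4.28, and named genes past 2-fold include S100a8 at -2.29 and Il1r1 at -2.27. Genes below the background mark in 1 pool, Ackr4 among them, are drawn at their unbounded difference.

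Signs of RNA quality and the scaling of the arrays were checked. The 3′ control probe sets of beta-actin and Gapdh stood at -0.73 and -0.67, and their 3′ to 5′ ratios were 83.5 and 46.9 in AL and 89.7 and 53.2 in CR, a strong 3′ bias on both arrays whose part in the results was not tested. Scaling on the cre hybridisation controls moved the median of all measured genes to -0.40 and the counts of genes lower and higher from 336 and 222 to 883 and 95. Scaling on all hybridisation controls moved the median to -1.08 and the counts to 5128 and 31. The differences given here were not centred. Both scalings subtract 1 constant from every gene, so the order of genes stays as it was. After them Cxcl9 stood at -0.13 and -0.81, still above the median of all measured genes, Cxcl10 stood at -0.36 and -1.04, and the ligand-processing genes had medians of -0.19 and -0.87. Cxcl1 was lower in CR under the 7 alternatives that can alter its difference, from -5.32 to -3.44, and the value of -3.79 among them rests on the probe set near background.

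**Figure D4:**
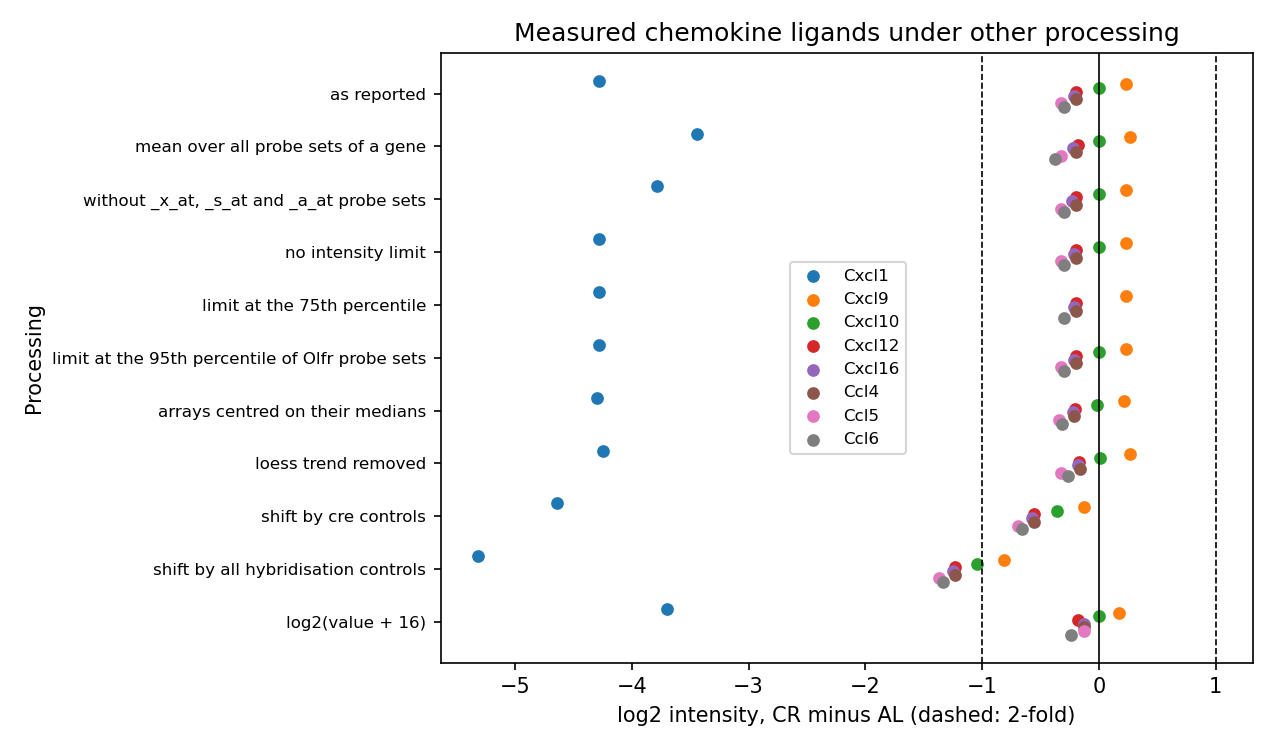
Log2 difference CR minus AL of the 8 measured chemokine ligands (colours) as reported and under 10 other ways of processing, with dashed lines at 2-fold; Ccl5 and Cxcl10 have no point at the 75th percentile limit. The intensity limits leave each remaining point in place by construction, Cxcl1 stays at or left of -3.44, and 6 of the other 7 genes pass -1, in no setting but scaling on all hybridisation controls.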

How the data were processed

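Liver RNA of 2 pools, AL and CR, was measured on 1 Affymetrix array each. The authors deposited 1 column of intensity values per pool, made with RMA per the submitters' processing notes, a method that corrects background, normalizes arrays to each other and summarises probes. The values ran from 2.37 to 18092, a linear scale, and the RMA version, software, later scaling and genome build are not given in the sources used here.

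Values were transformed to log2 with Python 3.11.15, numpy 2.4.6 and pandas 2.3.3, and CR minus AL was taken. Gene symbols came from the platform annotation, and all 10 chemokine genes matched the GRCm38.p6 gene table by gene ID and symbol. Each gene took the value of its brightest probe set, by the mean of both log2 values. Where the lower value was under 7.38, the fold was taken against 7.38 and counted on that basis. The members, the lists and the rules were chosen with earlier results of these data known. All members and all their probe sets are named, and of each list the genes past 2-fold or else the 2 of largest difference, and the genes next to Cxcl1 in the order of differences. Further genes, among them receptors, cytokines and single markers, were named after their values were seen. Listed genes without a probe set of a single symbol were not analysed here. Alternatives were another choice of probe set, intensity limits, scalings (a loess trend of span 0.4 used statsmodels 0.14.6), log2(value + 16) and a 1.5-fold threshold. The steps were tested on simulated data. Figures used matplotlib 3.10.9.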

Additional observations from a re-analysis of the deposited data

How the results depend on the processing

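With 1 array per diet, no replicate could be left out, and an alternative counts as a change when a value moved by more than 0.29, the median SD between probe sets of a gene, or a count by over 1.5 times. Of 11 alternatives, 4 (3 intensity limits and the 1.5-fold threshold) cannot alter a gene's difference, and under the other 7 Cxcl1 stayed at least 2-fold lower. It stood at -3.44 with the mean over probe sets, -3.79 without _x_at, _s_at and _a_at probe sets, -3.70 with log2(value + 16), -4.64 after scaling on cre and -5.32 on all hybridisation controls. The median over the 8 genes was -0.56 after scaling on cre and -1.24 on all hybridisation controls. Under the latter, 5 of the 8 genes, 6 of 11 other ligands and 1 of 9 receptors were at least 2-fold lower. Without it these counts were 1, 0 and 0, in each case with values under 7.38 raised to it. The same scaling put 42.3% of 12131 measured genes at least 2-fold lower, against 2.66% without it. The count of receptors higher, 1, was 0 with the mean over probe sets, at both stricter limits, after both control scalings and with log2(value + 16). At 1.5-fold, 1 other ligand was higher. For the other 7 genes, these 7 alternatives gave 49 values, of which 35 moved by less than 0.29, and the 14 that moved more came from the 2 control scalings, which subtract 1 constant from every gene. Over all measured genes, 336 lower and 222 higher became 220 and 107 with the mean over probe sets, 299 and 146 without _x_at, _s_at and _a_at probe sets, 883 and 95 on cre, 5128 and 31 on all controls, 154 and 135 with log2(value + 16), and 1120 and 805 at 1.5-fold. No paired analysis was possible because each diet had 1 pool. Signal near background limits Cxcl2, Ccl2, Ccl5 and most receptors.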

Other observations

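Cell types with few measured markers are given as values alone. Cholangiocyte markers, of the bile duct, had 3 measured of 7, with Epcam at -0.31, Sox9 at 0.29 and Krt7 at 5.98 in AL, below the background mark, and 7.49 in CR. B cell markers had 1 measured of 6, Pax5, at 0.20 and dim, with 8.06 in AL and 9.26 in CR and another probe set at -0.16. Of 5 mesothelial markers, Msln, Upk3b, Lrrn4 and Muc16 lay below the background mark in both pools. Krt8, a keratin that hepatocytes also express, stood at -1.05, and the highest of its 3 probe sets at -0.22.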
